A study of Mus musculus with 10 samples.

Results

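Cd74, H2-Aa, H2-Ab1, H2-K1, H2-D1, H2-Q4 and B2m are 7 genes of antigen presentation by the major histocompatibility complex (MHC), taken by gene symbol from the 18022 genes listed over 10 libraries of mouse small intestinal crypts. All libraries come from C57Bl/6 mice and were made with CEL-seq2, which tags 1 end of each transcript and counts molecules by random barcodes, in plates of 384 wells. In 7 libraries each well was meant to hold a single sorted cell of dissociated crypts: GK5a-M2-1 to GK5a-M2-5 (GK5a below, n = 5) and GK5b-G and Gk5b-L (GK5b, n = 2). In the other 3, JC68, JC71 and JC72, each well received a doublet or triplet of attached cells that was picked by mouth pipette after a mild dissociation. The titles do not say what these codes stand for, and the code, the way the cells were taken and the group cannot be told apart. The sex of the mice cannot be told apart from them either: Xist, an RNA of female cells, reached 120.03 to 155 transcripts per 1000000 (CPM) in picked and 0 to 0.978 in sorted libraries.

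MHC class I molecules show peptides from inside the cell to CD8 T cells, and nearly every nucleated cell carries them. Their heavy chains are encoded by H2-K1 and H2-D1, by relatives such as H2-Q4, and they are stabilised at the surface by B2m, the light chain beta-2 microglobulin. MHC class II molecules show peptides from engulfed material to CD4 T cells. H2-Aa and H2-Ab1 encode the alpha and beta chains of the I-A molecule, and Cd74 encodes the invariant chain that fills its groove and guides it through the cell. Class II is best known from dendritic cells, macrophages and B cells, but the epithelium of the small intestine also carries it, and interferon gamma raises both classes.

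The promoters of 4 members are shown because these genes differed in how they varied across the cells: H2-Aa with the class II genes, B2m as the most abundant member of the sorted libraries, and H2-D1 and H2-Q4 as related heavy chain genes of which H2-Q4 differed between picked and sorted libraries. Each window is from the RefSeq promoter table of GRCm38.p6, runs from 250 bases before to 50 bases after the start, and is written 5′ to 3′ on the gene's strand. Capitals mark the Y box core ATTGG or its reverse CCAAT, the NF-kappaB-type site GGGATTCCC (GGGAATCCC on the other strand) and the interferon-response-type site GTTTCNNTT (AANNGAAAC), each searched on both strands. The H2-Aa window is chr17:34287774-34288073 (minus strand), that of B2m chr2:122147437-122147736 (plus), that of H2-D1 chr17:35262844-35263143 (plus) and that of H2-Q4 chr17:35379367-35379666 (plus).
H2-Aa: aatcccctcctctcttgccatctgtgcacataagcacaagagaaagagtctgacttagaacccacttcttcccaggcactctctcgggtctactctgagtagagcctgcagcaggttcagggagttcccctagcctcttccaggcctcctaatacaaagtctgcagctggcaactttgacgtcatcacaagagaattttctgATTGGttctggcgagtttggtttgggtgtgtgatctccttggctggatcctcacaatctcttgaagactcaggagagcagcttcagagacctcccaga
B2m: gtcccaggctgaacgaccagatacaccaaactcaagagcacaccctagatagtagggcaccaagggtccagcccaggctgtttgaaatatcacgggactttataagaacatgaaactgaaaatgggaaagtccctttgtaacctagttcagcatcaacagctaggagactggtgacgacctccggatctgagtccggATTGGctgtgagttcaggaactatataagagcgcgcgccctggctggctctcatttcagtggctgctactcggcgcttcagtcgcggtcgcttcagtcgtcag
H2-D1: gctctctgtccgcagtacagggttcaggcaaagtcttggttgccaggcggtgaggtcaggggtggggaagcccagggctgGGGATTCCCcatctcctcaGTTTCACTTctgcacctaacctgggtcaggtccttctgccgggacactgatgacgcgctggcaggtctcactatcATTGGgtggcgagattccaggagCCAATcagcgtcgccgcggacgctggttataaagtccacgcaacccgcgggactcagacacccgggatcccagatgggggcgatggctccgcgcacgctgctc
H2-Q4: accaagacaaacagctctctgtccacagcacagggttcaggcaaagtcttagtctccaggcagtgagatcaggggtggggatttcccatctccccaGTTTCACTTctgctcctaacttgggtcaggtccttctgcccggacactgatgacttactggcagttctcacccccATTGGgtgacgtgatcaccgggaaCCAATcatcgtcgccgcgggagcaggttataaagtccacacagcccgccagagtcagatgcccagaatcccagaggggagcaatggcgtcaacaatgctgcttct

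The 5 members whose windows were searched, these 4 and H2-K1, all held the Y box core, as did 37.4% of the 32851 windows of all genes. No window of Cd74 or H2-Ab1 was searched. The NF-kappaB-type site was in the windows of H2-K1 and H2-D1, at -170.0 to -162 from the start in H2-D1, and in 0.353% of all windows. The interferon-response-type site was in H2-K1, H2-D1 and H2-Q4, at -151 to -143 in H2-D1 and -154 to -146 in H2-Q4, and in 5.77% of all windows. A match describes letters and not a bound factor, and none of the motifs overlapped another. A window without a match can still hold such a site in other letters. In the GENCODE annotation of GRCm38 H2-Aa spans chr17:34282744-34287823 and H2-Ab1 chr17:34257689-34269419. The class I genes lie on the same chromosome, H2-K1 at chr17:33996017-34000347, H2-D1 at chr17:35262730-35267499 and H2-Q4 at chr17:35379617-35385290, and B2m lies apart at chr2:122147686-122153083.

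Wells were kept from 1000 endogenous transcripts upwards, wells 1 to 72 of JC68 were set aside, and this left 1615 sorted wells (189 to 264 per library) and 470 picked wells (91 to 200). Sorted libraries held 1022860 to 4832580 transcripts in these wells, with a median per well of 3361 to 16427, and picked libraries 821829 to 1163720, with a median of 2756 to 8108. The 31 wells of JC68 that were deep enough but left out held the neutrophil genes S100a8 and S100a9 at 26729 and 34836 CPM, against 436 and 298 in the other wells of that plate. Transcripts of T cell, macrophage or dendritic cell, and B cell marker lists were absent from 71.9% of all used wells, and 25 wells held 10 or more. In JC68 they were absent from 30 of 91 used wells. The summed T cell list was at 27.001 to 349 CPM in sorted and 35.2 to 44.2 in picked libraries, the macrophage and dendritic cell list at 12.7 to 49.6 and 9.74 to 62.2, and the B cell list at 1.45 to 883 and 1.22 to 124. Stromal and erythroid lists reached at most 3.65 CPM. Plates share the same 384 well barcodes by construction.

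All 7 members were detected in every library, and B2m was the most abundant in the sorted ones. CEL-seq2 counts 1 tag per transcript, so levels of different genes can be compared without dividing by length. B2m was at 1083 to 2240 CPM in the sorted and 947 to 1751 in the picked libraries. H2-K1 was at 863 to 1211 in sorted and 496 to 833 in picked libraries, and H2-D1 at 795 to 1219 and 525 to 774. H2-Q4 was the scarcest member, at 3.06 to 35.2 CPM in sorted libraries. Of the last 400 bases of its longest transcript, 61 of 351 words of 50 bases also occur in H2-Q6, so its level is uncertain. For H2-D1, 43 words also occur in other genes, among them AC132307.5, Adsl and Kcnk4. For H2-K1, 2 words also occur in H2-D1, and the class II members and B2m share 0 words with other genes. A library sum cannot tell fewer cells of a type from less RNA per cell, so the members were also followed within classes of wells.

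Wells were classed by marker genes: goblet wells with Muc2, the main mucin, at 0.2% of transcripts or more; enterocyte wells with Apoa1, an apolipoprotein of absorptive cells, at 0.2%; Paneth wells with defensin (Defa) genes at 1%; enteroendocrine wells with Chga and Chgb at 0.2%; tuft wells with Dclk1 and Trpm5 at 0.1%. The rest were split by transcripts of Lgr5, which marks the stem cells at the crypt base, and Mki67, a gene of dividing cells. Wells that passed for more than 1 class were left out of the classes, and a class entered with at least 5 wells in a library. Sorted libraries gave 485 goblet, 85 enterocyte, 38 enteroendocrine, 26 tuft and 11 Paneth wells, with 151 wells with Lgr5 alone (named Lgr5-positive from here on), 171 with Lgr5 and Mki67, 340 with Mki67 alone and 253 with neither. Enterocyte wells came from the 5 GK5a libraries only. As a check of the class names, the listed stem cell markers, Lgr5 among them, summed to 2680 to 5056 CPM in Lgr5-positive wells and 552 to 957 in goblet wells, and the listed enterocyte markers, Apoa1 among them, to 39278 to 75802 in enterocyte wells and 193 to 2050.4 in Lgr5-positive wells. In 205 of 1615 sorted wells Muc2 lay within 2-fold of its threshold, and in 12 Apoa1 did. Wells with Lgr5 alone had a median depth of 2218 to 14139.5 transcripts per library, against 5743 to 28671 for wells with both genes, so the absence of Mki67 depends in part on depth.

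By the mean over sorted libraries, 6 of the 7 members were highest in enterocyte wells. The exception was H2-Q4, at 17.01 CPM there and 76.2 in Lgr5-positive wells, which was too scarce to be tested in this comparison. Its mean in Lgr5-positive wells was raised by GK5a-M2-1, at 407 CPM, where 1 such well held 38.9% of the H2-Q4 transcripts of the library. H2-Aa in enterocyte wells was at 4920.5 CPM in GK5a-M2-1, 3121 in GK5a-M2-2, 5681 in GK5a-M2-3, 4141 in GK5a-M2-4 and 1851 in GK5a-M2-5, a mean of 3943 ± 1506 (SD, n = 5). In Lgr5-positive wells of the 6 libraries with enough of them it was at 379 to 1324, a mean of 863 ± 300.3 (n = 6). The lowest enterocyte library thus lay above the highest Lgr5-positive one. The 4.66-fold difference passed in limma with the library as a block and Benjamini-Hochberg adjustment over 8689 genes (log2 2.22 ± 0.39 SE, adjusted p = 1.31e-05). In the same comparison 14.5% of all tested genes were called higher and 28.6% lower, and of the 6 members tested 4 were higher and 0 lower.

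B2m was the member with the highest level in enterocyte wells, 5069.9 to 8599 CPM with a mean of 6559.9 ± 1305 (SD, n = 5), against 1690.3 ± 310.03 (n = 6) in Lgr5-positive wells. No enterocyte library overlapped the Lgr5-positive range of 1174 to 2075. The fold was 4.31 (log2 2.11 ± 0.15 SE, limma adjusted p = 3.95e-15). H2-K1 rose 3.79-fold to 3227 ± 708 CPM and H2-D1 rose 3.44-fold to 2471 ± 332 (limma, adjusted p = 1.72e-11 and 1.82e-13). All 4 of these calls held in each of the 20 alternative settings tried.

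Cd74 and H2-Ab1, the other 2 class II members, did not pass in enterocyte wells against Lgr5-positive wells. Cd74 was at 614 to 1417 CPM there, a mean of 1040.4 ± 332 (n = 5), against 111 to 866 in Lgr5-positive wells, with a mean of 612 ± 311 (n = 6). Its log2 difference was 1.35 ± 0.60 (SE; limma, adjusted p = 0.0632), and it was called in 9 of 20 alternatives. H2-Ab1 was at 962 to 2828 CPM against 399.95 to 808, with no overlap between the libraries (log2 1.72 ± 0.83 SE, limma adjusted p = 0.0927, called in 6 of 20). The SE of H2-Ab1 comes from all classes of the fit, among them enteroendocrine and tuft libraries with 0 transcripts. Without those 2 classes of wells, a setting chosen after seeing the data, both passed: Cd74 at 1.38 ± 0.22 (limma, adjusted p = 2.93e-06, the smallest of its 20 alternatives, whose largest was 0.226) and H2-Ab1 at 1.74 ± 0.32 (1.66e-05, with 0.174 as the largest). With all classes kept and wells with Mki67 alone as the reference, limma called both higher in enterocyte wells. Cd74 was at log2 1.74 ± 0.58 (SE, limma adjusted p = 0.014) and H2-Ab1 at 2.25 ± 0.82 (0.0231). Of all genes 12.2% were higher and 31.8% lower against that reference.

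In goblet wells 1 tested member was called lower, 2 were called higher and 3 were not called. H2-Aa was lower there than in Lgr5-positive wells, at 158 to 507 CPM with a mean of 290.3 ± 112 (SD, n = 7; log2 -1.19 ± 0.36 SE, limma adjusted p = 0.0207). H2-K1 was higher at 1183 ± 117 against 943 ± 113 CPM (log2 0.63 ± 0.17 SE, limma adjusted p = 0.00712), and so was H2-D1 at 985 ± 135 against 839.99 ± 179 (0.51 ± 0.13, 0.00524). Among all genes 8.92% were higher and 3.77% lower in this comparison. Cd74 in goblet wells was at 181 ± 83.6 CPM (log2 -1.49 ± 0.55 SE, limma adjusted p = 0.0693), H2-Ab1 at 222 ± 98.4 (-1.23 ± 0.77, 0.382) and B2m at 1102.9 ± 209 (-0.33 ± 0.14, 0.108). Both heavy chain calls ended when library totals replaced the trimmed mean scaling (H2-K1 log2 0.38, H2-D1 0.26), a change that moved the median of all genes from 0.04 to -0.19. The call of H2-Aa ended without GK5a-M2-1 (log2 -1.14, limma adjusted p = 0.0715), without GK5a-M2-5 (-1.05, 0.0935) and where 2 transcripts of Lgr5 or Mki67 were asked for (-1.04, 0.142), and that of H2-D1 without Gk5b-L (0.43, 0.0523). Without enteroendocrine and tuft wells in the fit, Cd74 (limma, adjusted p = 4.72e-07), H2-Ab1 (0.00105) and B2m (0.0171) also passed as lower, while over all alternatives their largest adjusted p was 0.207, 0.628 and 0.617.

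Among the classes of the sorted libraries, enteroendocrine and tuft wells had the lowest mean CPM of the 3 class II members. Cd74 had 5 transcripts in 23 tuft wells and was at 0 to 107 CPM over 4 libraries, with 0 in 2 of them, and H2-Ab1 had 15 transcripts at 0 to 213 CPM. In the 4 libraries with 30 enteroendocrine wells H2-Ab1 had 10 transcripts, with 0 in 2 of 4 libraries, and Cd74 had 19, at 62.3 to 244 CPM. At a fixed depth of 2000 transcripts, 1 of 22 tuft wells had Cd74 (4.55%, exact 95% interval 0.115 to 22.8%), 3 of 22 had H2-Aa and 22 of 22 had H2-D1. Of the enteroendocrine wells 9 of 27 had Cd74 (33.3%, 16.5 to 53.96%), a share above that of goblet wells (27.6%), while 5 of 27 had H2-Aa and 2 of 27 had H2-Ab1. In limma all 6 tested members were lower in enteroendocrine than in Lgr5-positive wells, beside 42.2% of all genes lower and 5.24% higher. The median of all genes was -1.29 on the log2 scale, and H2-K1 (-0.98 ± 0.19 SE) and H2-D1 (-0.77 ± 0.15) lay above it. The call of H2-D1 ended with library totals (log2 -0.29, limma adjusted p = 0.104, within 3.5e-05 to 0.104 over 18 alternatives). In tuft wells 5 were lower and H2-D1 was higher, at 1737 ± 562 against 839.99 ± 179 CPM (log2 0.61 ± 0.15 SE, adjusted p = 0.0017), beside 31.9% lower and 4.88% higher and a median of -1.001. These classes hold few wells, the fitted folds of genes with 0 in a library depend on the 1 CPM added before the log, and the lower call of H2-K1 in tuft wells was lost in 7 of 17 alternatives.

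**Figure D1:**
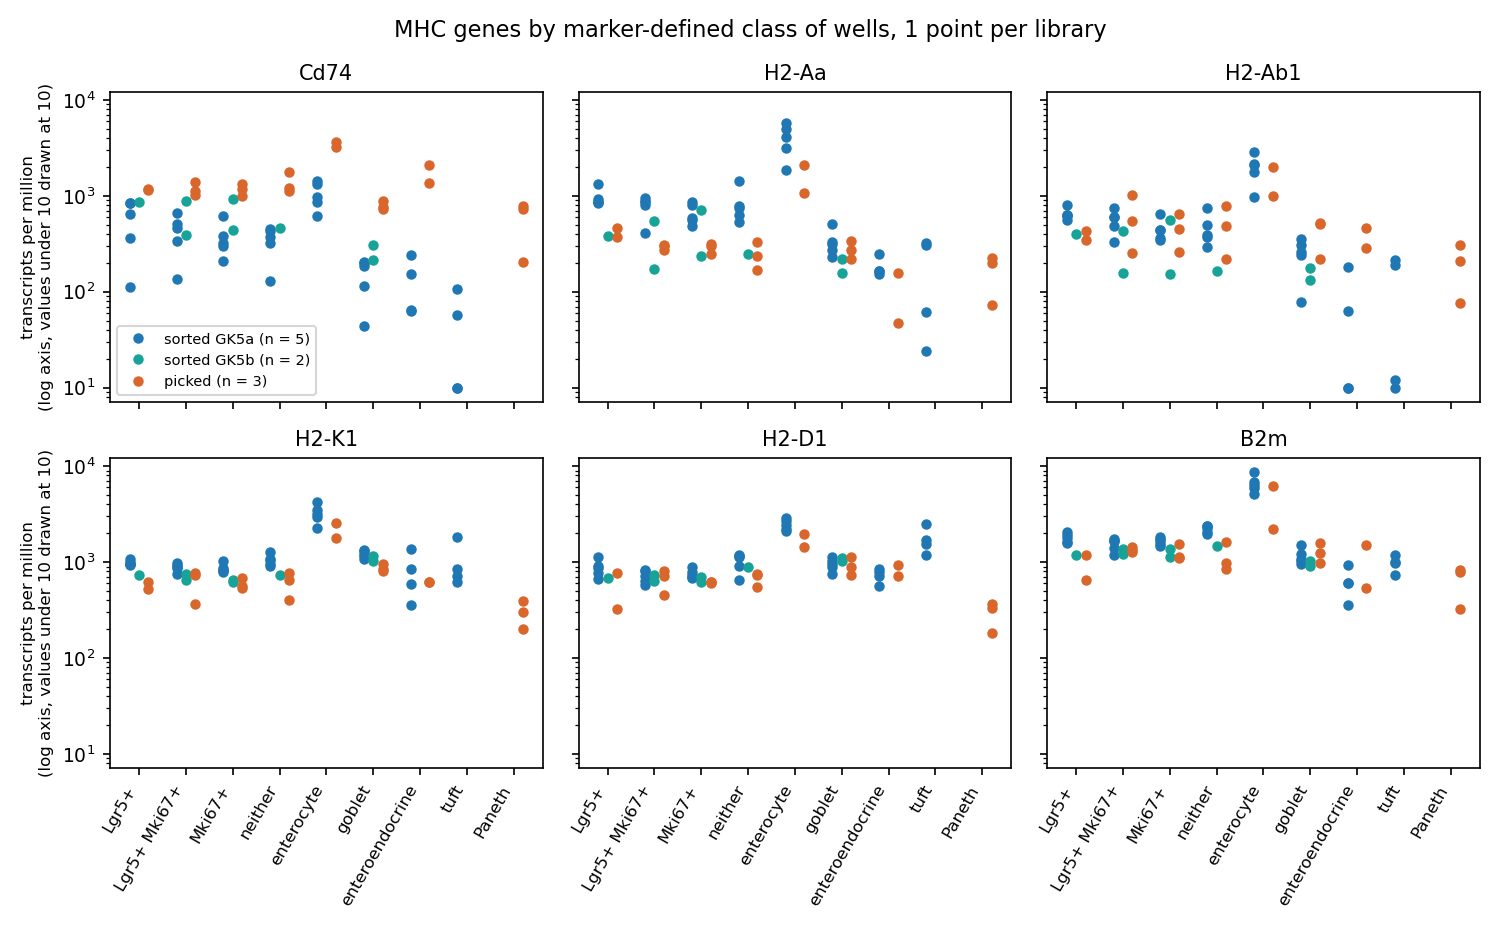
Level of Cd74, H2-Aa, H2-Ab1, H2-K1, H2-D1 and B2m by class of wells, as CPM on a log axis. There is 1 point per library that had at least 5 wells of the class, and the lowest values are drawn at a common floor. Enterocyte wells sit highest for H2-Aa and B2m, and tuft and enteroendocrine wells lowest for Cd74 and H2-Ab1 in the sorted libraries.

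No member was called between dividing and Lgr5-positive wells over all used wells. In wells with Mki67 alone Cd74 was at 458 ± 246 CPM, H2-Aa at 607 ± 213 and B2m at 1529 ± 234 (SD, n = 7), and limma called 0 of 6 members (0 of 6 also at an unadjusted p under 0.05), beside 2.04% of all genes higher and 0.829% lower. In GK5b-G 1 of these wells, with 150 immune transcripts, held 35.9% of the Cd74 and 46.2% of the H2-Aa transcripts of the library. Over wells with no immune transcript H2-Aa was called lower in Mki67 wells (log2 -0.89 ± 0.26 SE, limma adjusted p = 0.0482, within 0.0482 to 1 over 20 alternatives). In wells with neither gene limma called 0 as well, with 1 of 6 at an unadjusted p under 0.05 (B2m, higher), beside 3.21% and 0.783%. The order of means for Cd74 in sorted libraries was enterocyte, Lgr5-positive, Lgr5 with Mki67 (484), Mki67, neither (359.8), goblet, enteroendocrine (131) and tuft (40.98). From Lgr5-positive to neither, each neighbouring pair of means differed by less than 1 SD. A p that misses the threshold does not show that these classes have equal levels.

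The same classes were compared within picked libraries, with Mki67 wells as the reference in place of Lgr5-positive wells. Against that reference in sorted libraries limma called 6 of 6 members higher in enterocyte wells, beside 12.2% of all genes higher and 31.8% lower. In goblet wells of sorted libraries limma called 2 of 6 members higher and 0 lower, beside 5.96% and 2.92% of all genes. H2-Aa was not called there (log2 -0.78 ± 0.34 SE, limma adjusted p = 0.184). Enterocyte wells of JC71 and JC72 had Cd74 at 3220.5 and 3639.5 CPM, against 986 to 1311 in Mki67 wells of the 3 libraries. Cd74 passed there (log2 1.31 ± 0.27 SE, limma adjusted p = 0.00214), as did H2-Aa (2.18 ± 0.45, 0.00192), H2-K1 (1.55 ± 0.37, 0.00504) and H2-D1 (1.22 ± 0.37, 0.0229). H2-Ab1 (adjusted p = 0.0701), B2m (0.0597) and H2-Q4 (0.418) did not pass in limma. Of all 2465 genes tested 3.77% were higher and 24.7% lower. Goblet wells of picked libraries had H2-Aa at 278 ± 60.9 CPM (SD, n = 3) against 289.97 ± 35.03 in Mki67 wells (log2 0.10 ± 0.40 SE), and limma called 0 of 7 members there, with 2 of 7 at an unadjusted p under 0.05 (H2-K1 and H2-D1, higher), beside 0.243% of all genes higher and 0% lower. In the 12 enteroendocrine wells of JC71 and JC72 H2-Aa was called lower, at 47.3 and 155 CPM from 3 transcripts in all (log2 -1.88 ± 0.45 SE, limma adjusted p = 0.0186, beside 9.05% of all genes lower and 0.446% higher). Cd74 was at 1372 and 2097 CPM in the same wells, above all 3 libraries of Mki67 wells, and was not called (log2 0.35 ± 0.27 SE, limma adjusted p = 0.455). Paneth wells had the lowest mean CPM of H2-K1 (297 ± 95.1, SD, n = 3) and H2-D1 (294 ± 97.3) among picked classes, but after trimmed mean scaling their log2 differences from Mki67 wells were 0.17 and 0.09, and limma called 0 of 7 members (0 also at an unadjusted p under 0.05), beside 1.5% of all genes higher and 0.0406% lower. A picked well can hold cells of several types, so its class says only which marker was present. The effect of being a goblet or an enterocyte well, against Mki67 wells of the same library, was compared between picked and sorted libraries for each member, and none of 14 differences passed (exact permutation over libraries, smallest adjusted p = 0.35). The 7 tests of enterocyte wells cannot pass, since 2 against 5 libraries go no lower than p = 0.0952 in an exact permutation test. In goblet wells the lowest p-values before adjustment were those of B2m, with a mean log2 of -0.01 in the picked group and -0.48 in the sorted one (p = 0.0333 in the exact permutation test), and H2-Aa, with -0.08 and -1.04 (p = 0.05 in the same exact test). The sorted mean of H2-Aa includes GK5b-G at -2.17. There 1 of the Mki67 wells held 150 immune transcripts and 46.2% of the H2-Aa transcripts of the library.

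The share of wells with a transcript was compared after thinning each well to 2000 transcripts, which leaves out shallower wells. In the sorted libraries H2-Aa was found in 99 of 142 Lgr5-positive wells (69.7%, exact 95% interval 61.5 to 77.1%), 53 of 57 enterocyte wells (92.98%, 82.996 to 98.1%) and 114 of 435 goblet wells (26.2%, 22.1 to 30.6%). The intervals cover counting error only. B2m was found in 95.1% of Lgr5-positive, 100% of enterocyte and 77.5% of goblet wells. T cells of the mouse lack class II: in 8 sorted wells with at least 30 T cell transcripts and under 30 of other immune lists, a rule chosen after seeing the values, there were 0 Cd74, 0 H2-Ab1 and 3 H2-Aa among 22082.5 transcripts, which allows Cd74 up to 136 CPM at 3 counts. The same wells held 84 H2-K1, 80 H2-D1 and 97 B2m transcripts. These 8 wells also held 5 transcripts of H2-Eb1, another class II chain, at 226 CPM. The 136 CPM is a counting limit of these pooled wells, and it was not tested as a background level for tuft or other wells.

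**Figure D2:**
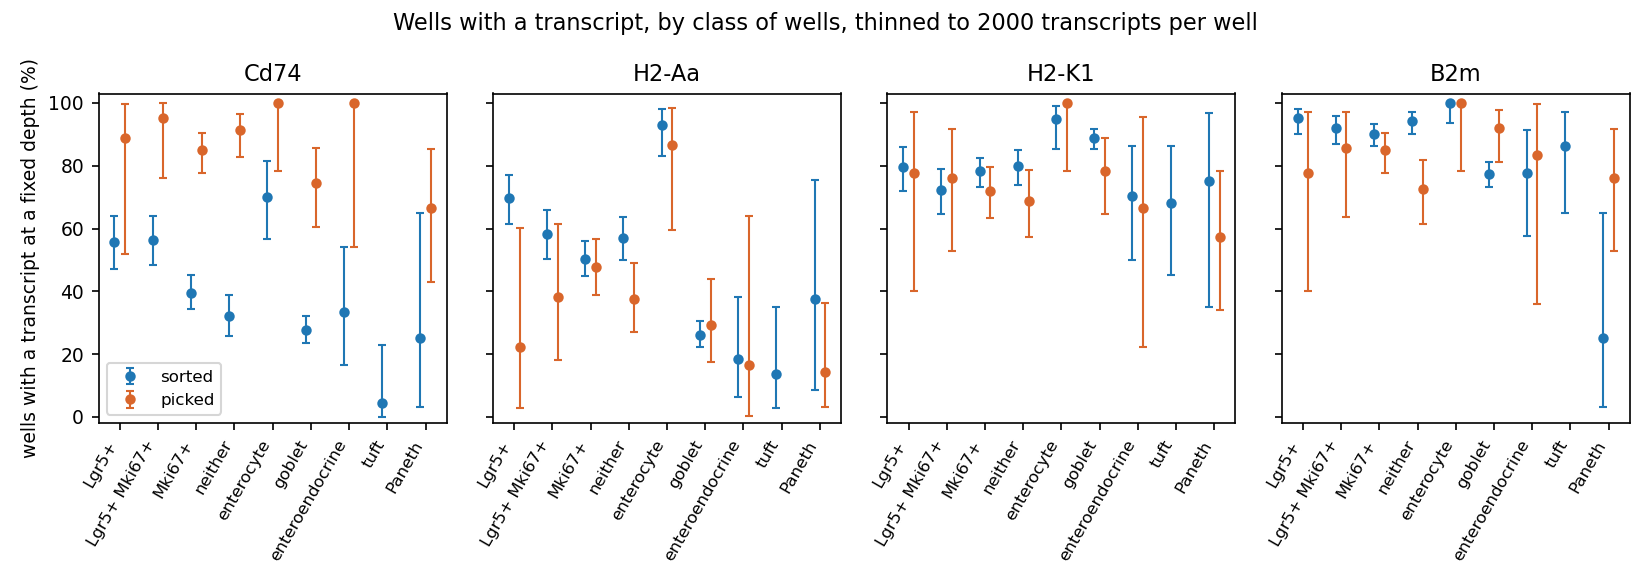
Percent of wells with a transcript of Cd74, H2-Aa, H2-K1 and B2m by class, each well thinned to 2000 transcripts, pooled over sorted or picked libraries, with exact 95% intervals that cover counting error only. Cd74 was found in more picked than sorted wells of most classes (112 of 132 against 129 of 326 Mki67 wells), while H2-Aa was not.

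Cd74 was higher in picked than in sorted libraries. It was at 843 CPM in JC68, 1155 in JC71 and 1269.7 in JC72. In the sorted libraries it was at 181, 623, 399.7, 316 and 498 in GK5a-M2-1 to GK5a-M2-5, 438 in GK5b-G and 499 in Gk5b-L. The lowest picked library was above the highest sorted one. The means were 1089 ± 221 (SD, n = 3) and 422 ± 143 (n = 7), and limma over 10419 genes gave a log2 fold change of 1.79 ± 0.30 (SE, 3.45-fold, adjusted p = 0.000837). Whether the libraries stem from different animals is not in the labels, and every p-value here reflects the spread among these libraries alone, a spread that may be technical.

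H2-Q4 had the other called difference between picked and sorted libraries. It was at 143, 173 and 221 CPM in JC68, JC71 and JC72. In sorted libraries it was at 35.2, 3.06, 3.75, 11.7 and 7.20 in GK5a-M2-1 to GK5a-M2-5, 11.6 in GK5b-G and 18.4 in Gk5b-L. The highest sorted library lay below the lowest picked one, and the log2 fold change was 4.37 ± 0.55 (SE, 20.7-fold, limma adjusted p = 0.000108). Of the 7 members 2 were thus called higher and 0 lower, beside 14.7% and 16% of all genes. Both calls held in all 26 alternatives, with a log2 of 1.43 to 2.50 for Cd74 and 3.83 to 4.71 for H2-Q4. In goblet wells alone Cd74 was at 729, 756 and 889 CPM in the picked and 43.5 to 309 in the sorted libraries, and in Mki67 wells at 986 to 1311 and 211 to 933, without overlap in either class. The sorted Mki67 wells include 1 of GK5b-G with 150 immune transcripts, which held 35.9% of the Cd74 transcripts of that library.

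The other 5 members were not called between picked and sorted libraries. H2-Aa was at 289, 267 and 385.5 CPM in the picked libraries, inside the sorted range of 299 to 1133 for 1 of them and below it for the other two (log2 -0.73 ± 0.38 SE, limma adjusted p = 0.157). H2-Ab1 was at 273, 552 and 595 (0.41 ± 0.32, 0.344). H2-K1 was at 496 to 833, below all sorted libraries (-0.37 ± 0.15, limma adjusted p = 0.0716), H2-D1 at 525 to 774, also below them (-0.20 ± 0.14, 0.3), and B2m at 947 to 1751 (-0.13 ± 0.24, 0.722). With library totals in place of the trimmed mean scaling, which moved the median of all genes from -0.08 to -0.42 and the calls from 1535 higher and 1667 lower to 840 and 3649, H2-Aa (log2 -1.09, limma adjusted p = 0.0359), H2-K1 (-0.73, 0.0053) and H2-D1 (-0.56, 0.0149) passed as lower. Against the GK5a libraries alone H2-Aa (-1.09, limma adjusted p = 0.000874) and H2-K1 (-0.41, 0.0369) passed as lower, and against the GK5b libraries alone H2-Ab1 passed as higher (1.23, 0.0138) and H2-Aa lay the other way (0.32, 0.288). Over the 26 alternatives the adjusted p ran from 0.000874 to 0.684 for H2-Aa, 0.0138 to 0.914 for H2-Ab1, 0.0053 to 0.771 for H2-K1 and 0.0149 to 0.943 for H2-D1. Neither scaling turned the direction of Cd74 or H2-Q4.

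**Figure D3:**
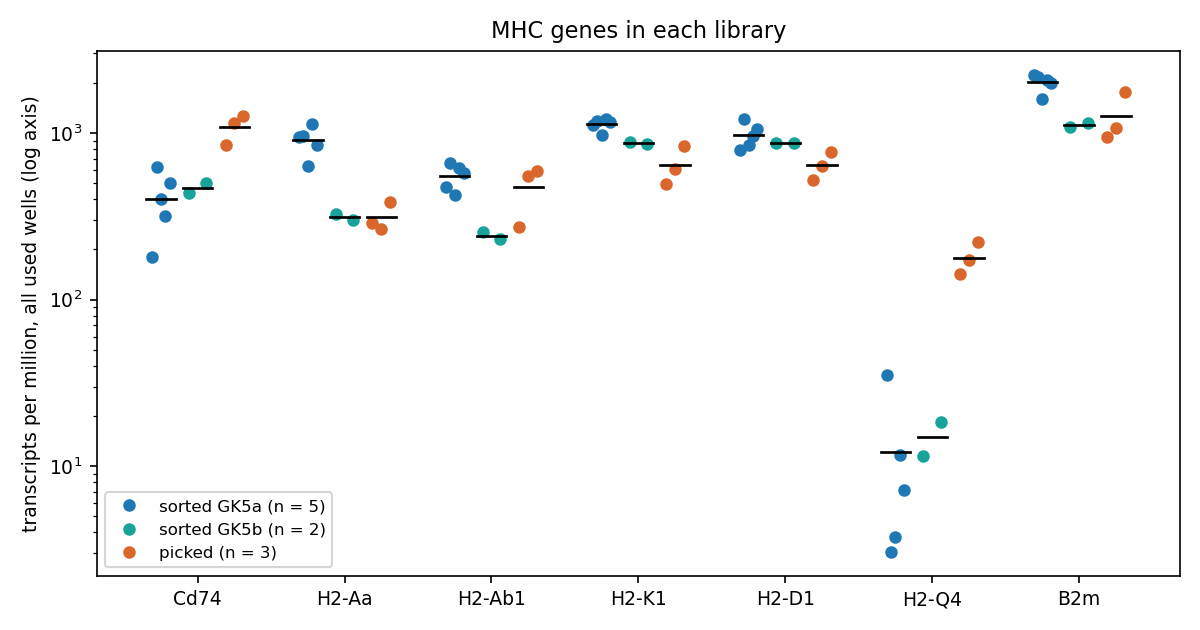
CPM of each member over all used wells of each library, on a log axis, with 1 point per library and a line at the group mean. The 3 picked libraries lie above all 7 sorted ones for Cd74 and H2-Q4, and the GK5b libraries lie below the GK5a ones for H2-Aa, H2-Ab1 and B2m.

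The shares of wells at a fixed depth showed the same 2 genes apart. Cd74 was found in 67.05%, 86.8% and 88.4% of wells of JC68, JC71 and JC72 and in 18.1 to 50.8% of wells of the sorted libraries, without overlap. H2-Q4 was found in 22.3 to 29.7% of picked and 0 to 6.94% of sorted wells, also without overlap. For both the exact permutation p over libraries was 0.0167, the smallest that 3 against 7 libraries allow, and 0.117 after adjustment over 14 tests, so they do not pass. H2-K1 was found in 69.7 ± 7.84% of picked and 81.2 ± 2.80% of sorted wells (exact permutation p = 0.0333, adjusted 0.156). A picked well was meant to hold 2 or 3 cells, and thinning to 2000 transcripts does not undo this: a gene of either cell is then found at a share that cannot be compared with that of single cells as a share of cells.

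Ratios between members within a library do not depend on the scaling. The log2 ratio of Cd74 to H2-Aa was 1.54, 2.12 and 1.72 in JC68, JC71 and JC72, so the invariant chain had 2.91, 4.33 and 3.29 transcripts for each of H2-Aa. In GK5a libraries it was -2.38, -0.63, -0.66, -1.84 and -0.77, and in GK5b-G and Gk5b-L 0.42 and 0.74. The 3 groups were ordered without overlap, GK5a lowest and picked highest. Picked minus sorted was 2.52 (exact permutation p = 0.0167, adjusted p = 0.0889 over 16 ratio tests), and GK5b minus GK5a 1.83 (p = 0.0952, the smallest that 2 against 5 allow in an exact permutation test). The difference was 2.46 in Mki67 wells alone, 2.32 in goblet wells alone and 2.64 in wells below all class thresholds.

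Among the other ratios, H2-Ab1 to H2-Aa was 1.14 higher in picked libraries on the log2 scale, also without overlap (exact permutation p = 0.0167, adjusted p = 0.0889). The 2 chains form 1 molecule, and in sorted libraries their ratio spanned -0.98 to -0.36. H2-Q4 to H2-D1 was 4.76 higher (exact permutation p = 0.0167, adjusted p = 0.0889), while H2-K1 to H2-D1 was -0.01 ± 0.10 in picked and 0.16 ± 0.20 in sorted libraries (p = 0.183 in the exact permutation test). None of the 16 ratio tests passed after adjustment. In the exact permutation test those of picked against sorted libraries cannot go below p = 0.0167, and those of GK5b against GK5a not below 0.0952. A single ratio at either limit cannot pass over 16 tests, so no conclusion is drawn from this.

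**Figure D4:**
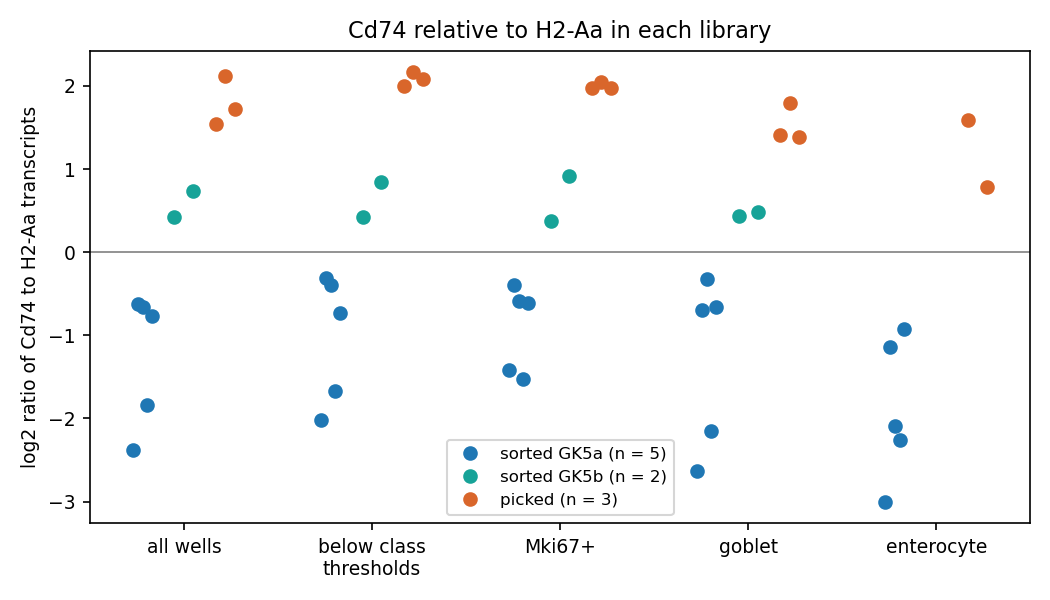
Log2 ratio of Cd74 to H2-Aa transcripts in each library, over all used wells and within Mki67, goblet and below-threshold wells. Picked libraries lie from 1.54 to 2.12 over all wells, above the GK5b libraries (0.42 and 0.74) and the GK5a libraries (-2.38 to -0.63).

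Within the sorted libraries GK5b and GK5a differed in the class II chains and B2m. H2-Aa was at 328 and 299 CPM in GK5b-G and Gk5b-L and at 943, 962, 632, 1133 and 849.9 in the GK5a libraries, without overlap (log2 -1.45 ± 0.19 SE, limma adjusted p = 0.000496). H2-Ab1 was at 255 and 229.6 against 425 to 656 (-1.12 ± 0.17, limma adjusted p = 0.00145), and B2m at 1083 and 1146 against 1592 to 2240.2 (-0.80 ± 0.15, 0.00405). Cd74, their partner, was not called, at 438 and 499 against 181 to 623 (log2 0.38 ± 0.35 SE, limma adjusted p = 0.533). H2-K1, H2-D1 and H2-Q4 were not called, so 3 of 7 members were lower and 0 higher, beside 6.66% and 6.35% of all genes.

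The makeup of the plates differed beside these members, and its part in their differences was not tested. GK5b libraries had no enterocyte wells, and 191 and 107 of their used wells were goblet wells, against 31 to 43 in each GK5a library. In goblet wells alone the log2 difference of H2-Aa was -0.75 (limma adjusted p = 0.659), in Mki67 wells alone -0.68 (0.336) and below all class thresholds -0.72 (0.117), so none was called there. In the same 3 sets of wells the log2 difference was -0.50 to -0.60 for H2-Ab1 and -0.22 to -0.45 for B2m, and neither was called. Few genes passed in these sets: 0 of all genes in goblet (limma, 333 at an unadjusted p under 0.05), 68 in Mki67 and 198 in below-threshold wells. Without GK5b-G, which leaves 1 GK5b library whose spread is taken from the others, H2-Ab1 (log2 -1.25, limma adjusted p = 0.0523, within 0.000182 to 0.94 over 19 alternatives) and B2m (-0.82, 0.127, within 0.000868 to 0.943) differed by as much as with it and were not called. In GK5b-G a single Mki67 well with 150 immune transcripts held 35.9% of the Cd74, 46.2% of the H2-Aa and 48.6% of the H2-Ab1 transcripts of the library. Without wells of 10 or more immune transcripts H2-Aa in GK5b-G was at 178 CPM. Over wells with no immune transcript the difference of H2-Aa between GK5b and GK5a was larger (log2 -1.997, limma adjusted p = 8.25e-05, within 7.68e-05 to 0.659 over 19 alternatives).

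Over all wells of the sorted libraries, genes of the class II molecule were found together more often than the product of their shares gives. Over the 7 sorted libraries, at 2000 transcripts per well, Cd74 and H2-Aa were found together 1.22 to 1.62 times as often (median 1.37, above 1 in 7 of 7), H2-Aa and H2-Ab1 1.24 to 1.94 times and Cd74 and H2-Ab1 1.35 to 1.81 times. Class I pairs stood near 1: H2-K1 and H2-D1 at 0.995 to 1.05, B2m and H2-K1 at 0.992 to 1.02. A gene found in most wells cannot rise far above 1, which bounds the class I pairs and Cd74 in picked wells. Below all class thresholds Cd74 and H2-Aa stood at 0.95 to 1.48, above 1 in 6 of 7 libraries. Those wells pool 4 classes with unlike shares of Cd74, from 32.1% of wells with neither gene to 56.4% of wells with Lgr5 and Mki67, and the part of class makeup in these ratios was not tested. In picked libraries the same pair stood at 1.01 to 1.14 over all wells. In goblet wells of sorted libraries Cd74 and H2-Aa stood at 0.60 to 2.20, above 1 in 4 of 7 libraries. There Cd74 and H2-Ab1 stood at 1.11 to 2.50 and H2-Aa and H2-Ab1 at 0 to 2.50, each above 1 in 6. In sorted enterocyte wells, most of which had H2-Aa, Cd74 and H2-Aa stood at 0.98 to 1.08, above 1 in 2 of 4 libraries.

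**Figure D5:**
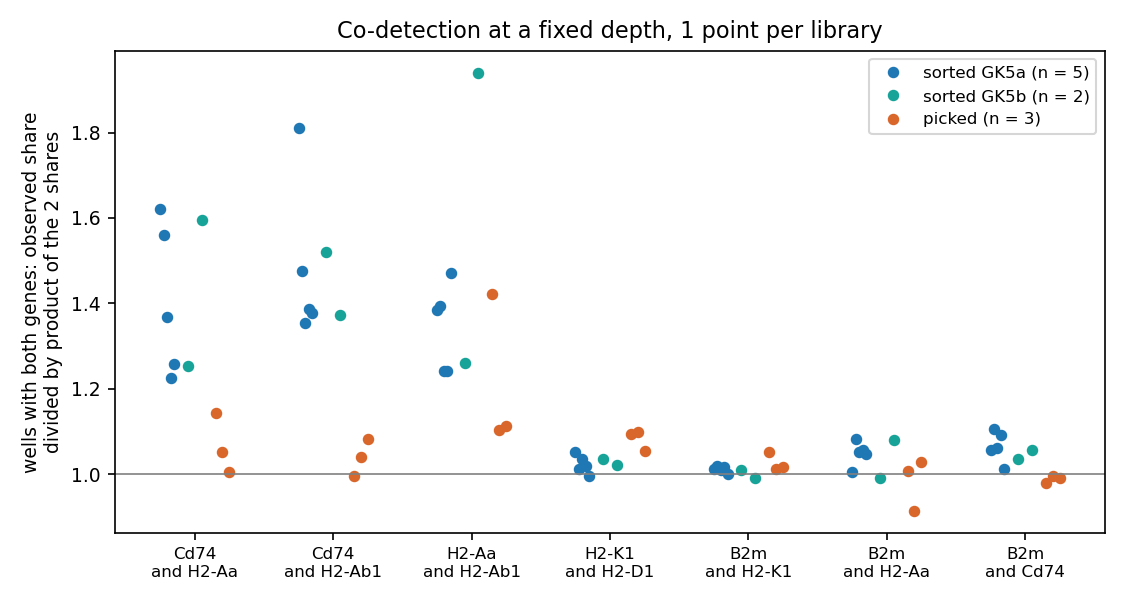
Observed share of wells with both genes of a pair divided by the product of their 2 shares, at 2000 transcripts per well, with 1 point per library. The 3 class II pairs lie from 1.22 to 1.94 in sorted libraries, and the pair of H2-K1 and H2-D1 from 0.995 to 1.05.

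The sets of class II genes in a well differed between the groups of libraries. In GK5a libraries 22.6 to 34.7% of thinned wells had none of Cd74, H2-Aa and H2-Ab1, in GK5b 42.97% and 37.5%, and in picked libraries 18.2%, 5.79% and 4.52%. Wells with Cd74 and neither chain were 0.694 to 8.15% in GK5a, 16.8% and 19.8% in GK5b and 20.6 to 28.4% in picked libraries. Wells without any of H2-K1, H2-D1 and B2m were 0.543 to 1.58% in sorted and 2.27 to 6.61% in picked libraries. These shares are descriptions, given with no test.

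Among 1838 genes found in at least 20% of the wells of every library, those whose CPM followed Cd74 most closely across wells were H2-Ab1 (mean Spearman correlation over 10 libraries 0.52), H2-Aa (0.47), H2-Eb1 (0.37), Psmb8 (0.34) and Mgam (0.31). H2-Eb1 encodes the beta chain of the I-E molecule, Psmb8 a subunit of the immunoproteasome and Mgam a brush border enzyme that splits sugars. For B2m they were Slc25a5 (0.43), Mgam (0.37), Mdh1 (0.35), H2-Aa (0.35) and Atp1b1 (0.34). Wells of a library differ in depth, and with thinned wells the values fell to 0.32 for H2-Ab1 and 0.29 for H2-Aa with Cd74. In wells below all class thresholds Mgam was not among the 5 closest genes of Cd74 or of B2m. They are given as descriptions, without a test.

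Other genes of the class II pathway followed the members in part. In enterocyte against Lgr5-positive wells 3 of 9 tested genes were higher and 1 lower, with a median log2 difference of 0.55 beside -0.48 for all genes, of which 14.5% were higher and 28.6% lower. H2-Eb1 (log2 1.24 ± 0.45 SE, limma adjusted p = 0.0241), Ctss, a protease that trims the invariant chain (1.65 ± 0.63, 0.0328), and H2-DMb1, a chain of the peptide-loading helper (1.14 ± 0.44, 0.0321), were higher, and Rfx5, a factor of class II promoters, was lower (-3.26 ± 0.94, 0.00462). In goblet wells, where 3.77% of all genes were lower and 8.92% higher, 4 of 9 were lower and 0 higher: Ciita, the master activator of class II transcription (-2.72 ± 0.82, limma adjusted p = 0.0198), Ctss, H2-DMa and H2-Eb1. Between GK5b and GK5a 3 of 11 were lower, Ctss, H2-DMa and H2-Eb1, and 0 higher, beside 6.66% and 6.35% of all genes. In picked against sorted libraries 2 of 10 were higher and 0 lower, a share of higher genes near that of all genes (14.7%, with 16% lower): the promoter factors Rfxank (1.05 ± 0.30, limma adjusted p = 0.018) and Rfxap (0.70 ± 0.23, 0.0394), and H2-Eb1 was not called (0.14 ± 0.31, 0.754).

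Class I pathway genes rose in enterocyte wells in 7 of 19 tested, with 0 lower and a median of 0.79, beside 14.5% of all genes higher and 28.6% lower. Among them were the nonclassical heavy chains H2-T23 (log2 2.04 ± 0.31 SE, limma adjusted p = 1.2e-06) and H2-Q1 (4.96 ± 0.63, 2.61e-08), Tap2, a chain of the peptide pump of the endoplasmic reticulum (2.85 ± 0.69, 0.000897), and Tapbp, which docks the pump to the heavy chain (1.16 ± 0.25, 0.000205). In picked against sorted libraries 6 of 22 were higher and 1 lower, with a median of 0.24 beside -0.08 for all genes, of which 14.7% were higher and 16% lower. H2-T23 (1.19 ± 0.22, limma adjusted p = 0.00186) and the immunoproteasome genes Psmb8 (0.87 ± 0.18, 0.003) and Psmb10 (1.10 ± 0.16, 0.000311) were higher, and the chaperone Canx was lower. Between GK5b and GK5a 5 of 23 were lower, among them Tap2 and H2-T3, and the chaperones Calr and Pdia3 were higher, beside 6.66% and 6.35% of all genes. Nonclassical heavy chain genes are close relatives, so their single levels are uncertain, and the fitted size for scarce genes depends on the 1 CPM added before the log.

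Genes of the interferon response were called in both directions. In picked against sorted libraries 2 of 26 were higher, Isg15 (log2 1.39 ± 0.34 SE, limma adjusted p = 0.00942) and Ifitm3 (1.19 ± 0.20, 0.000876). In the same comparison 6 were lower, among them the interferon-induced GTPases Irgm2 (-1.40 ± 0.36, limma adjusted p = 0.0109) and Gbp7 (-2.11 ± 0.33, 0.000524), with a median of -0.42 for the list. Of all genes 14.7% were higher and 16% lower, and single called genes are no result about the list. Irf1, a transcription factor of the response, was not called (-0.26 ± 0.18, limma adjusted p = 0.28). In enterocyte wells 6 of 21 were higher, among them Irf7 and Zbp1, and Ifitm3 was lower, beside 14.5% and 28.6% of all genes. Between GK5b and GK5a 1 of 27 was higher and 2 were lower (6.35% and 6.66% of all genes), Ifngr2, a chain of the interferon gamma receptor (-0.83 ± 0.13, limma adjusted p = 0.00182), and Irf1.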

How the data were processed

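CEL-seq2 plates of sorted single cells (7 libraries) and picked doublets or triplets (3) were read on a NextSeq500, per the labels' protocols. BWA 0.6.2-r126 and mm10 are named in the submitters' processing notes. The deposited values are not raw counts. By their form they are molecule estimates, numbers of distinct 6-base barcodes corrected for barcodes used more than once: 100% of values map back to whole barcodes within 0.001. The counting software is not given in the sources used here. Since they are not whole counts, limma was used where an edgeR test had been planned for counts.

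Transcripts were summed over wells with at least 1000, per library or per class of wells (at least 5 wells). Sums were scaled by trimmed means (TMM factors 0.718 to 1.11), taken as log2(CPM + 1), and tested with limma 3.58.1 in R 4.3.3 (lmFit, eBayes with trend, Benjamini-Hochberg over all genes, threshold 0.05), with the library as a block for classes. Genes entered a fit with 15 transcripts in all and a CPM that equals 10 transcripts in a sum of median size. That CPM was asked for in 3 libraries, or in as many as the smaller group held where that was fewer. For classes it was asked for in 3 sums per library and class. The depth per library limits the precision of scarce members such as H2-Q4. Shares used wells thinned to 2000 transcripts, with exact two-sided permutation over libraries and exact 95% binomial intervals. Python 3.11.15 with numpy 2.4.6, pandas 2.3.3, scipy 1.17.1 and matplotlib 3.10.9 did the rest, and the fit was tested on simulated data. No doublet caller was run. Alternatives changed scaling, pseudocount (5), filters, wells, classes and libraries.

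The 7 members were named in every comparison, with genes of 3 pathway lists that passed; genes named without passing were picked for their role after their values were seen. Members, lists and thresholds were chosen with earlier results of these data known. Sequences are from RefSeq, and motifs were searched as short cores chosen after a first search with longer forms.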

Additional observations from a re-analysis of the deposited data

Results flagged for a closer look

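In 5 of 84 groups of 4 to 10 libraries 1 library stood far from the rest by its gap to the nearest value, and chance flags about 1 in 20 groups. H2-Q4 was at 35.2 CPM in GK5a-M2-1, above the other GK5a libraries (3.06 to 11.7), and 38.9% of its transcripts there came from 1 well. In the wells with Lgr5 alone H2-Q4 was at 407 CPM in the same library, and in Mki67 wells it was highest in Gk5b-L, at 21.7. H2-Aa in enteroendocrine wells was highest in GK5a-M2-4, at 249 CPM from 4 transcripts, 2 of which came from 1 well that also held 50.1 transcripts of the T cell list. B2m was found in 86.6% of thinned wells of GK5a-M2-2, the lowest of the GK5a libraries.

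The 31 wells of JC68 that entered no comparison held all 7 members. Cd74 was at 518 CPM, H2-Aa at 153, H2-Ab1 at 169.6 and H2-Q4 at 72.7, each below its level in the used wells of the plate (843, 289, 273 and 143). H2-K1 was at 565, H2-D1 at 1042 and B2m at 1788, each above it (496, 525 and 947). No difference between these sets of wells was tested.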

How the results depend on the processing

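Of the alternatives tried, 1014 values kept direction and side of the threshold, 44 newly passed, 25 no longer passed, 20 counts moved over 1.5 times and 11 values changed sign, none of them called. The log2 of picked against sorted changed sign for H2-D1 below the class thresholds (0.0147), in Mki67 wells (0.12) and in goblet wells (0.0748), for H2-Aa in goblet wells (0.18) and against GK5b alone (0.32), and for B2m in Mki67 wells (0.0693), in goblet wells (0.37), against GK5b alone (0.46) and without picked replicate 2 (0.00813, with -0.334 as the other end when 1 library was left out). GK5b against GK5a changed sign for H2-D1 in goblet wells (0.20) and without GK5a replicate 2 (0.00462, with -0.174 as the other end). The cause was not tested. The settings of wells with under 10 immune transcripts, Mki67 wells, goblet wells, wells with no class marker and a fit without enteroendocrine and tuft wells were chosen after seeing the data.

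Genes called between picked and sorted libraries fell from 3202 to 1039 in goblet wells, 1625 against GK5b alone and 994 in wells with no class marker. Leaving out 1 library gave 2613 to 3240. Between GK5b and GK5a they fell from 1385 to 198 below the class thresholds, 68 in Mki67 wells and 0 in goblet wells (limma, 333 at an unadjusted p under 0.05). Leaving out 1 library gave 216 (without GK5b-G) to 1625. Against Lgr5-positive wells the counts were 1103 for goblet, 3198 for tuft and 249 for Mki67 wells. With pseudocount 5 the Mki67 count was 428. With wells of 2000 transcripts they were 1885, 1791 and 591, and with weights by wells 2258, 1750 and 838. Goblet and Mki67 counts were 2641 and 1151 with 10 wells per class and 2316 and 963 without enteroendocrine and tuft wells. Leaving out 1 library gave 131 (without Gk5b-L) to 282 for Mki67, and 140.0 without GK5a-M2-2. Library totals changed the goblet split from 775 higher and 328 lower to 562 and 531. Tuft wells could not be fitted without immune-positive wells, nor tuft and enteroendocrine wells with 10 wells per class. Share tests of GK5b against GK5a cannot go below p = 0.0952 in the exact permutation test, so their stability says nothing. No paired analysis was possible because the labels give the groups no shared replicate numbers. Wells of few transcripts limit what scarce members can show.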
